A study of Homo sapiens with 5 samples.

Results

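The regions described here are 259 of 2040 human replication origins, chosen by position alone: the deposited distance from the origin centre to the nearest transcription start site (TSS) was 1 to 20000 bp on the downstream side. They are called downstream origins. The 1099 origins with a centre 1 to 20000 bp on the upstream side of the nearest TSS are called upstream origins and serve for comparison. Origins had been mapped by OK-seq, the sequencing of Okazaki fragments, and each centre lay on a grid of 500 bp. Per the file name, only origins whose 5 kb upstream of the TSS is empty had been kept, and how this was decided is not stated in the labels. No downstream origin shared its nearest TSS with another, and the 200-kb windows of 9 overlapped that of another downstream origin.

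RNA polymerase II (RNAPII) occupancy was measured by ChIP-seq against RPB1, its largest subunit, in RPE1, an immortalised line of human retinal pigment epithelium. All groups were untreated and derived from the same background, labelled RPE1 iCas9 p53/puro-dKO, so the WT cells also lack p53. The groups were CFAP20/CCNC-dKO (1 library), CFAP20-KO (1 library) and WT (3 libraries). The labels do not say whether each knockout is 1 clone, and nothing in them says that the WT libraries came from separate cultures, so spreads and p-values may measure technical variation only. They name an RPB1 antibody from 1 supplier for WT and from another for both knockouts, so antibody and genotype cannot be told apart. Input also differed: CFAP20/CCNC-dKO had 22 ug of chromatin and 32.6 ng of spike-in, against 28 ug and 40 ng for CFAP20-KO and WT. This difference cannot be told apart from the CFAP20/CCNC-dKO genotype either. For WT, the labels give RPB1 and the Drosophila spike-in antibodies 1 shared catalogue number. Around origins there was signal in the 3 WT libraries, and around TSSs in 1 library of each group.

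In human cells, replication starts within broad zones that are often found between active genes, and RNAPII and replication forks then share the template. RNAPII initiates at the promoter, pauses shortly past the TSS, elongates through the gene body at lower density and slows again past the polyadenylation site. Where an origin lies within a transcribed gene, a fork moving toward the promoter meets that gene's RNAPII head-on, and a fork moving the other way travels with it.

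Only part of the 259 centres lay inside a gene. By the RefSeq span of the nearest gene, 118 centres (45.6%) were inside it and 122 (47.1%) were past its end, at a median of 6268.5 bp past it, while 1 lay before the start and 18 had no matching span. The genes of the origins past the gene end were short, with a median length of 3831 bp, against 34258 bp for those with the centre inside. By GENCODE 44, 34 centres lay in an exon, 112 in an intron and 113 in no gene, and 99 lay in a protein-coding gene on the strand of the nearest gene. The nearest gene was protein-coding for 139 downstream origins, a long noncoding RNA for 64, a transcribed pseudogene for 19 and a microRNA for 17. For the upstream origins, 975 of 1099 nearest genes were protein-coding. The median distance was 9246 bp. Just inside the limits lay NUP35 (11 bp), CAMK4 (84 bp) and C2orf73 (117 bp) at one end and OR2S2 (19653 bp), LOC101927789 (19715 bp) and MGAT4EP (19744 bp) at the other. Just outside lay IBSP (-53 bp), RNU5A-1 (-50 bp) and LINC02421 (-26 bp) on the upstream side and LINC00578 (20080 bp), LOC100129316 (20131 bp) and TIGD4 (20229 bp) on the far side.

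The middle 200 bases of a pair of origins among the first 4 by RNAPII density at the centre are shown because they carry high values described below, on the strand of the nearest gene in build hg38. Capitals mark runs of at least 3 G or 3 C. The centres near SNORD141B and CLIP4, the others of the first 4, are not printed.
FAM193A, chr4:2536901-2537100, + strand: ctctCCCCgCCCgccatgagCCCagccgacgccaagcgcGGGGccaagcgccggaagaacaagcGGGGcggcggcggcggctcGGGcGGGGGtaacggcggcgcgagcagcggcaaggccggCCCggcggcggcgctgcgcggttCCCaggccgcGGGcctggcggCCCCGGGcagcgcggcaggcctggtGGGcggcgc
PLPP4, chr10:120458401-120458600, + strand: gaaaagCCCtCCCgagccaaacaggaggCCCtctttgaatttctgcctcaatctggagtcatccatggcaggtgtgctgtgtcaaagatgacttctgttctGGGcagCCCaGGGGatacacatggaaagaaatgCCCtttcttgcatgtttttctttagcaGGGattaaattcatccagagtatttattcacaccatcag
The FAM193A centre had 83.0% G and C and the PLPP4 centre 46.5%. Over 1000 bases around the centre, the median G and C content was 43.7% in downstream origins and 43.0% in upstream origins, against 41.9% and 41.8% at 50 kb from the centre on both sides. A G-quadruplex motif (4 runs of at least 3 G, or of C, with gaps of 1 to 7 bases) was present in these 1000 bases in 37 of 259 downstream origins (14.3%) and in 96 of 1099 upstream origins (8.74%). Windows 50 kb away held it in 9.65% and 11.3%. The share with the motif was higher near promoters, although most origins with it lay further away: 13 of 33 centres within 2000 bp of the TSS (39.4%) held it, and 24 of 226 further away (10.6%). Among the 226, median centre density relative to the library median was 0.980, 0.890 and 1.06 in WT replicates 1 to 3 with the motif, and 0.989, 0.935 and 1.03 without it, a difference smaller than the spread between libraries.

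The promoters with the highest RNAPII density among downstream origins are shown as the 250 bases before the RefSeq start (build GRCh38.p14), because they set the upper end of the promoter values. Capitals mark the motifs searched on both strands, namely the TATA box TATAAA, the CCAAT box, the GC box GGGCGG and the AP-1 motif TGANTCA, where matches may overlap. S100A6 encodes a small calcium-binding protein, BHLHE41 a circadian transcription repressor, OLMALINC a long noncoding RNA and CCN2 a secreted matricellular protein.
S100A6, chr1:153535992-153536241, - strand: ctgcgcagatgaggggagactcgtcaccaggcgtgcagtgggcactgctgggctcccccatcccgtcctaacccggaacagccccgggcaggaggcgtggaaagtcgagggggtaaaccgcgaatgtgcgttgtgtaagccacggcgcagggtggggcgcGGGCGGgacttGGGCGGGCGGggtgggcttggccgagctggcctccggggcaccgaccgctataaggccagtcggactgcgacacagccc
BHLHE41, chr12:26125038-26125287, - strand: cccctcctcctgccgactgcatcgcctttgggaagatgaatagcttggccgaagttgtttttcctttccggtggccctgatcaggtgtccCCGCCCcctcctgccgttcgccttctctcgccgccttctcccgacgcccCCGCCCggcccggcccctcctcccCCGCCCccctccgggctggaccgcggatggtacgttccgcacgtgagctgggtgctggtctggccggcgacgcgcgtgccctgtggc
OLMALINC, chr10:100373326-100373575, + strand: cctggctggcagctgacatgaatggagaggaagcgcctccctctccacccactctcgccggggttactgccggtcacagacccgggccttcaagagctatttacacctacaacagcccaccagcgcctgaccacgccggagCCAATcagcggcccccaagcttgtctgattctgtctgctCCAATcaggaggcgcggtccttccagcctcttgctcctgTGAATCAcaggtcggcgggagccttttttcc
CCN2, chr6:131951373-131951622, - strand: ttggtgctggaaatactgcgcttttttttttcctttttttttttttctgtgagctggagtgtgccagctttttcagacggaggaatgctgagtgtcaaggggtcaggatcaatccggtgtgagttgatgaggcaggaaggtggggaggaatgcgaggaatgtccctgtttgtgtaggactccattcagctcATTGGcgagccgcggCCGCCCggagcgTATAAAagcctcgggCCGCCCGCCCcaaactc
The promoters of S100A6, BHLHE41 and CCN2 each held GGGCGG 3 times, CCN2 also held TATAAA and CCAAT once, and OLMALINC held CCAAT 2 times and TGANTCA once. A RefSeq promoter starting within 1000 bp of the tabulated TSS was found for 140 downstream and 756 upstream origins. GGGCGG was present in 44.3% of these downstream promoters and in 67.3% of the upstream ones, against 42.3% of all 27305 RefSeq promoters. TATAAA was present in 9.29% and 4.50%, against 11.1% of all. CCAAT was present in 32.1% of both sets, against 33.0%, and TGANTCA in 5.71% and 5.69%, against 6.60%. Median G and C content was 58.8% in downstream promoters and 65.6% in upstream promoters, against 58.0% in all.

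Densities around origins are given relative to each library's median over all bins of the 2040 windows, so that 1 is the typical level around any origin. Every deposited value was a whole multiple of 1 step per library, and the centre window (1 kb on either side) held a median of 222, 73 and 35 steps in WT replicates 1, 2 and 3, so single centres in replicate 3 are the least precise. Across downstream origins, Spearman's rho between WT libraries was 0.848 to 0.920 for promoter density and 0.561 to 0.689 for centre density, which describes libraries that share the same regions. Bins ran in the direction of the nearest gene: at the position of the TSS before the centre, mean deposited density was 1.85, 0.995 and 1.58, against 1.02, 0.628 and 0.790 at the mirrored position. Of the markers of the pigment epithelial lineage, OTX2 (promoter at the 86.0th percentile of TSSs in WT) and MITF (62.7th) were the highest of the 4 with a TSS in the files. RPE65 and RLBP1, which define mature pigment epithelium, lay at the 51.4th and 47.5th percentiles. Of markers of other cells, CD3E lay at the 17.5th percentile and ALB at the 41.2th. CFAP20 and CCNC had no TSS among those analysed, and the loss of the targeted genes was not checked here.

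RNAPII was higher at the promoter than at the origin centre, and the promoters near downstream origins were less occupied than those near upstream origins. Promoter density (1 kb on either side of the TSS) had a median of 1.56, 1.31 and 2.0 in the 3 WT libraries for downstream origins, against 2.65, 1.96 and 3.43 for upstream origins. Centre density had a median of 1.01, 0.948 and 1.06 for downstream origins, against 0.968, 0.948 and 1.00 for upstream origins. Promoters of downstream origins were lower in all 3 libraries, by 0.71 ± 0.11 on the log2 scale (median of downstream over median of upstream -0.71, SD, n = 3 libraries), while the centres stood at about the level of the surrounding region in both sets. Low promoters were not particular to these origins: at the 112 origins over 20000 and up to 50000 bp downstream of the TSS, promoter density was 1.21, 1.10 and 1.5. The order against upstream origins held among protein-coding nearest genes, a comparison chosen after the data were examined: promoter density was 1.85, 1.43 and 2.40 near 139 downstream origins, against 2.79, 2.06 and 3.63 near 975 upstream origins. Less RNAPII per cell and fewer cells with RNAPII at a site cannot be told apart in these bulk data.

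**Figure D1:**
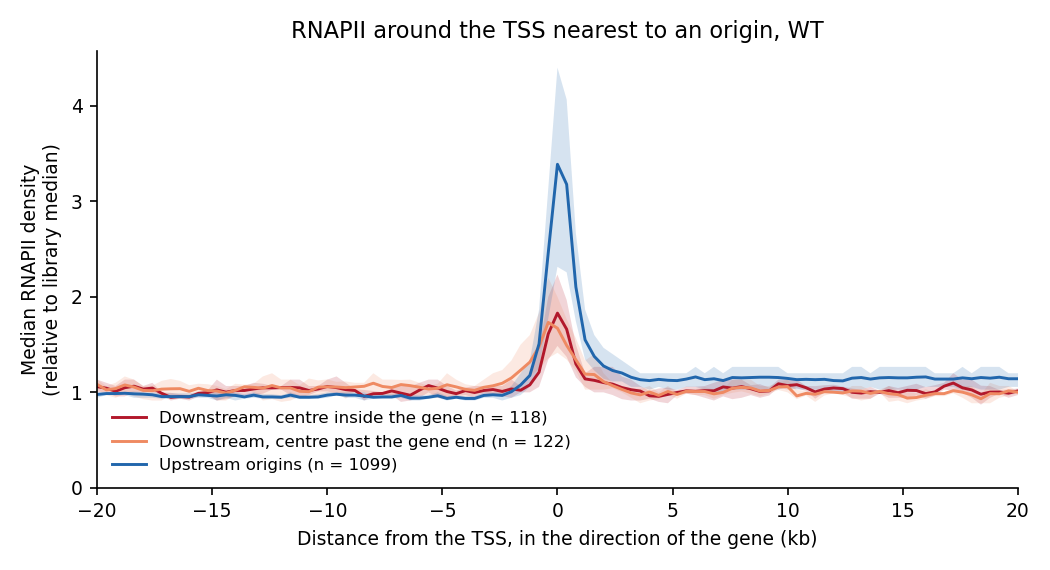
Median RNAPII density relative to the library median (y axis) against distance from the TSS in the direction of the gene in kb (x axis) in WT, for downstream origins with the centre inside the nearest gene, downstream origins with the centre past the gene end, and upstream origins. Lines are the mean of 3 libraries and bands their lowest to highest value. The TSS bin reached 1.77, 1.49 and 2.23 with the centre inside, 1.60, 1.41 and 2.0 with the centre past the gene end, and 3.45, 2.31 and 4.40 for upstream origins.

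Laid out from the TSS, density was also lower past the promoter, in windows that extend beyond the end of many of these genes, whose median length was 11261 bp. From 5 to 10 kb past the TSS, median density was 1.05, 1.00 and 1.09 for downstream origins, against 1.17, 1.03 and 1.25 for upstream origins. From 20 to 40 kb past it, the values were 1.07, 1.01 and 1.14 for downstream origins, against 1.16, 1.03 and 1.24 for upstream origins. On the other side, from 10 to 2 kb before the TSS, the order was turned: 1.06, 1.00 and 1.13 for downstream origins, against 0.971, 0.946 and 1.02 for upstream origins, whose centres lie on that side.

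At the 226 downstream origins more than 2000 bp from the TSS, the log2 ratio of promoter over centre had a median of 0.56, 0.50 and 0.76 in the 3 WT libraries (mean 0.61 ± 0.14, SD, n = 3). An exact two-sided sign-flip test over 3 libraries cannot go below p = 0.25, so such medians are given as descriptions. By limma over all origins with Benjamini-Hochberg adjustment, the promoter was higher than the centre at 106 of 226 downstream origins (46.9%), where 66.3% of all 1707 origins tested were called. It was lower than the centre at 7 (3.10%), where 1.82% of all were called. Both counts changed with the libraries used. Without replicate 1 there were 78 higher calls (34.5%, where 53.3% of all were called). Without replicate 2 the lower calls rose to 11 (4.87%, where 2.75% of all were called). The promoter was higher at 36 of 88 origins with the centre inside the gene (40.9%) and at 59 of 121 past its end (48.8%).

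CCN2 had the highest ratio of promoter over centre among the named genes. Its promoter density was 8.12, 5.63 and 11.4 in the 3 WT libraries, against 1.02, 0.649 and 0.758 at the centre, which lies 14371 bp from the TSS (chromosome 6, 131951372). The log2 ratio was 3.19 ± 0.32 (SE, limma adjusted p = 1.4e-06), with the promoter higher in 3 of 3 libraries. S100A6 had promoter densities of 9.73, 7.80 and 9.87, the highest mean of all downstream origins, against 1.39, 1.61 and 2.48 at its centre 7490 bp away. BHLHE41 had 9.08, 5.57 and 11.3 at the promoter, against 1.38, 1.09 and 1.30 at its centre 18536 bp away. In each of these genes the lowest promoter value was above the highest centre value.

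OLMALINC had 8.74, 5.40 and 11.1 at the promoter, against 3.91, 1.64 and 2.39 at the centre in its intron. KLLN, a gene regulated by p53, had 7.13, 5.59 and 8.70 at the promoter, against 1.66, 1.34 and 1.36 at the centre. MIR320A, a microRNA gene, had 6.43, 3.86 and 11.2 at the promoter, against 0.864, 0.727 and 0.818 at the centre. Among the named origins, the centre was higher than the promoter by limma at SNORD141B and LOC101927789. LOC101927789 had 1.28, 1.49 and 1.07 at the promoter, against 3.12, 1.38 and 3.97 at the centre (log2 ratio of promoter over centre -0.98 ± 0.36, limma adjusted p = 0.022), but replicate 2 went the other way.

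**Figure D2:**
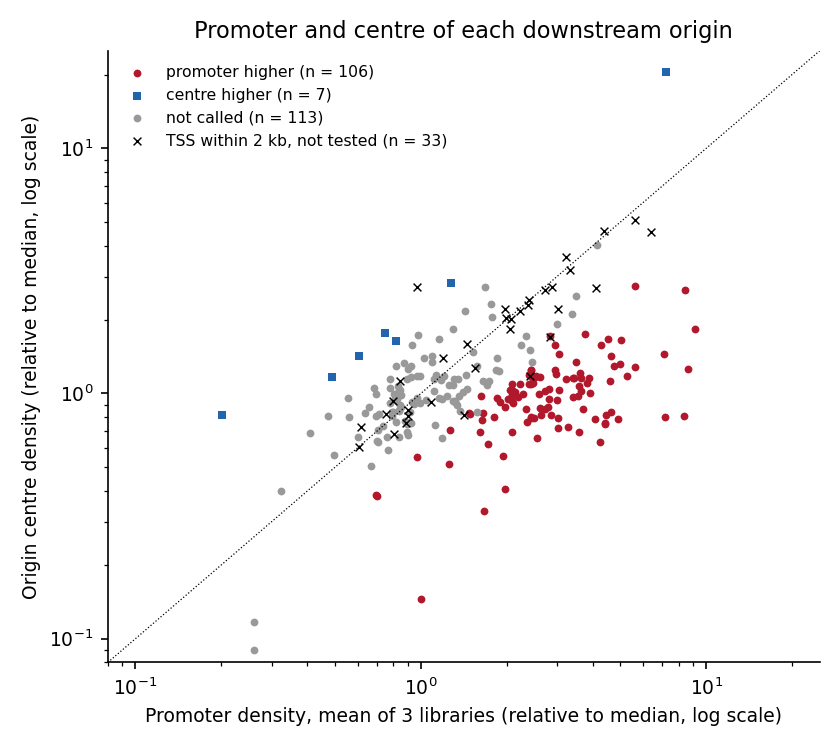
Promoter density (x axis) against origin centre density (y axis) for each of the 259 downstream origins, as the mean of 3 WT libraries relative to the library median on log scales. Red circles mark the 106 origins with a higher promoter by limma, blue squares the 7 with a higher centre, grey circles those not called, crosses the 33 with the TSS within 2 kb, and the dotted line equal densities. The centre higher than all others, at 20.4, belongs to SNORD141B.

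Set against upstream origins, the log2 ratio of centre over promoter was higher at downstream origins by 0.78, 0.51 and 1.00 in the 3 WT libraries (mean 0.76 ± 0.25, SD). Its mean was -0.61 for 226 downstream origins and -1.37 for 998 upstream origins. The difference was 0.34 ± 0.22 for distances over 2000 and up to 5000 bp, 0.71 ± 0.27 up to 10000 bp and 0.89 ± 0.23 up to 20000 bp (SD, n = 3 libraries), all with downstream origins higher in each library. In these bands, library medians at the centre averaged 1.01, 0.981 and 0.978 for downstream origins, against 0.979, 0.960 and 0.949 for upstream origins. At the promoter they averaged 1.93, 1.60 and 1.45, against 2.33, 2.85 and 2.91, so the sets differed mainly at the promoter. With protein-coding nearest genes only, a comparison chosen after the data were examined, the difference over all these distances was 0.79. Over genes of at least 20000 bp, the log2 ratio of gene body (5 to 20 kb past the TSS) over promoter was also higher near 85 downstream origins than near 884 upstream origins, by 0.68, 0.57 and 0.61. Body density itself was not higher: in protein-coding genes of that length its median was 1.08, 0.994 and 1.13 near 68 downstream origins, against 1.19, 1.03 and 1.28 near 850 upstream origins.

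At the origin centre itself, RNAPII stood close to its flanks (75 to 100 kb on both sides). The median log2 ratio of centre over flanks was -0.078, -0.086 and -0.084 at the 259 downstream origins, against -0.16, -0.088 and -0.22 at the 1099 upstream origins. The sign depended on the summary: with the ratio of mean densities it was 0.14, and with the centre widened to 5 kb on either side 0.0071. By limma, the centre was higher than its flanks at 26 of 259 downstream origins (10.0%), where 5.25% of all 2040 origins were called, and lower at 26, where 8.63% of all were called. Of the 26 higher calls, 16 were among the 33 origins within 2000 bp of the TSS, where the centre window takes in the promoter peak, and 10 among the other 226 origins. With the centre past the gene end, 5 of 122 origins were called higher and 12 lower. Without replicate 1 the counts were 9 higher and 6 lower (3.47% and 2.32%, where 1.37% and 1.42% of all were called). Without replicate 2 they were 13 higher and 6 lower (5.02% and 2.32%, where 1.96% and 1.42% of all were called).

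**Figure D3:**
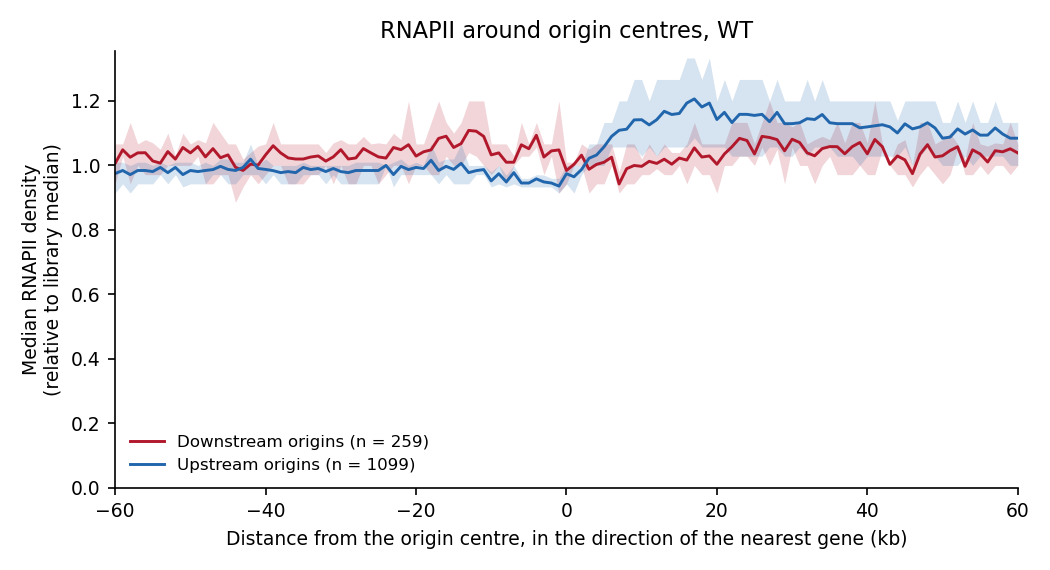
Median RNAPII density relative to the library median (y axis) against distance from the origin centre in kb, in the direction of the nearest gene (x axis), at 259 downstream and 1099 upstream origins in WT. Lines are the mean of 3 libraries and bands their lowest to highest value. Around the centre the downstream line stays near 1, with medians of 1.01, 0.948 and 1.06 in the centre window.

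The density at single centres varied widely, from 0.0899 to 20.4 as the mean of 3 libraries, with the middle 50.0% of downstream origins between 0.820 and 1.29. SNORD141B had by far the highest centre, at 23.1, 11.9 and 26.2 in the 3 WT libraries, against flanks 4.16 ± 0.23 lower on the log2 scale (SE, limma adjusted p = 8.1e-08). Its centre lies in an intron of EEF1A1 by GENCODE 44, the gene of a translation elongation factor that is among the most highly expressed in human cells. EEF1A1 has near-identical pseudogene copies, so the value is uncertain. FAM193A (5.21, 3.91 and 6.24), CLIP4 (4.37, 3.81 and 5.67), PLPP4 (3.56, 4.77 and 5.36), CDC25B (4.09, 2.26 and 4.42) and NCOA1 (2.88, 2.53 and 4.12) followed in the 3 libraries, and all lie within 2000 bp of the TSS. Among these genes, PLPP4 encodes a phospholipid phosphatase, CDC25B a phosphatase that activates cyclin-dependent kinases and NCOA1 a coactivator of nuclear receptors. GJD4, a connexin gene on chromosome 10, had 4.41, 3.32 and 4.33 at a centre past its end, but flanks of 4.85, 3.90 and 4.93, so its centre was not above its surroundings.

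Chromosome 10 held 25 of the downstream origins, and density was higher there: the centre had a median of 1.5, 1.34 and 1.36 on chromosome 10, against 0.993, 0.948 and 1.06 on the other chromosomes. The flanks were higher there too, at 1.51, 1.37 and 1.54 on chromosome 10, against 1.04, 0.959 and 1.10, so the rise was not confined to the centres. PLPP4, GJD4, OLMALINC and KLLN lie on that chromosome, and its part in their values was not tested. Leaving out chromosome 10 gave a promoter over centre ratio of 0.57, against 0.61 with it.

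Centre density varied with position. Centres up to 2000 bp from the TSS had a median of 1.6, 1.34 and 2.33. Those over 2000 and up to 5000 bp had 1.05, 0.883 and 1.09, those up to 10000 bp 0.995, 0.948 and 1.00, and those up to 20000 bp 0.968, 0.935 and 1.03. Beyond 2000 bp the distances did not differ by more than the spread between libraries. Centres inside the nearest gene had 1.05, 0.968 and 1.15, against 1.00, 0.929 and 1.00 past the gene end. The inside centres include 30 up to 2000 bp from the TSS, at 1.96, 1.44 and 2.53, and beyond 2000 bp the order differed between bands. Over 2000 and up to 5000 bp, inside centres averaged 0.995 ± 0.105 and past-end centres 1.08 ± 0.168 (SD, n = 3 libraries). Up to 10000 bp, inside centres averaged 0.928 ± 0.0527 and past-end centres 1.03 ± 0.0558. Up to 20000 bp, inside centres averaged 1.01 ± 0.0459 and past-end centres 0.955 ± 0.0284. Exonic centres had 1.20, 1.00 and 1.42 and intronic ones 1.02, 0.948 and 1.14, against 0.973, 0.948 and 0.939 for centres in no gene. These classes differ in distance: 21 of 34 exonic, 94 of 112 intronic and 111 of 113 centres in no gene lay over 2000 bp from the TSS. The part of distance in this order was not tested.

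The authors' deposited table gave a BrU-seq value, a measure of nascent transcription over the gene body, for 61 of the downstream origins' genes. Above the median of these values, promoter density was 2.36, 1.72 and 2.92 and centre density 1.19, 1.02 and 1.29. At or below the median, promoter density was 0.990, 1.10 and 1.07 and centre density 0.877, 0.922 and 0.909. Across these 61 origins, Spearman's rho between the BrU-seq value and RNAPII was 0.624, 0.514 and 0.621 for the promoter and 0.487, 0.347 and 0.292 for the centre in the 3 libraries, as a description of genes that share the libraries. The median BrU-seq value was 0.961 for downstream origins and 0.996 for 375 upstream origins in the authors' deposited table, on a scale not given. Among genes with such a value, promoter density was 1.34, 1.43 and 2.23 near downstream origins, against 2.66, 1.91 and 3.47 near upstream origins.

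**Figure D4:**
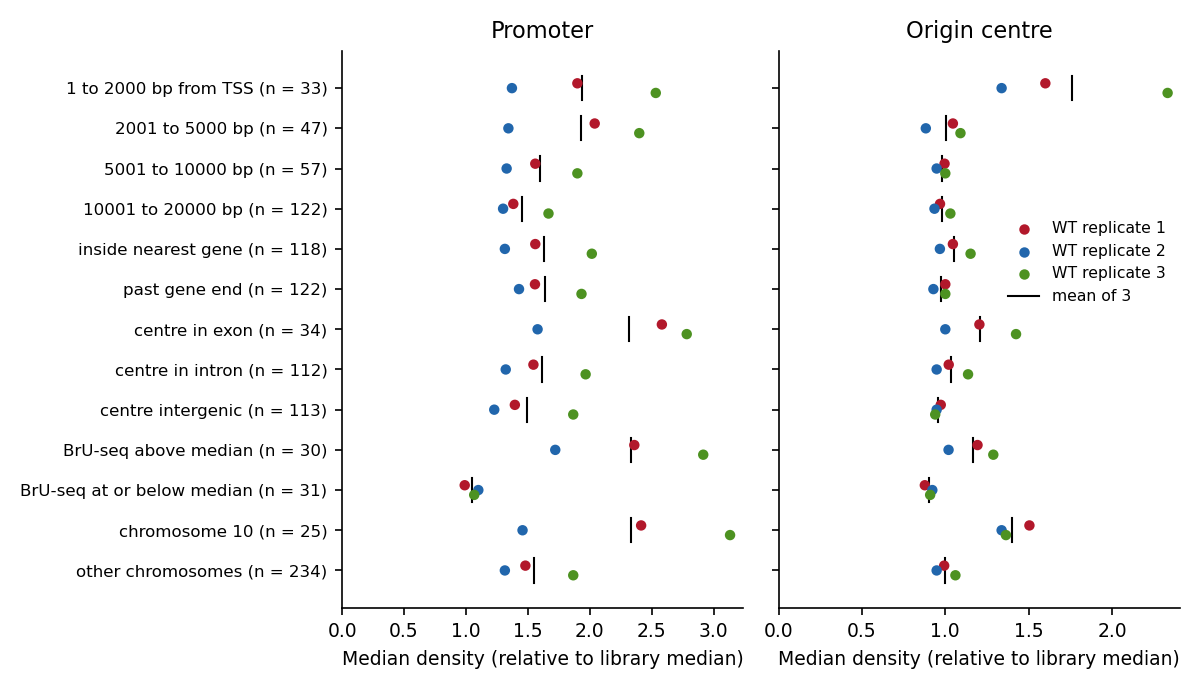
Median RNAPII density relative to the library median (x axes) at the promoter (left) and at the origin centre (right) for classes of downstream origins (rows, with their number), in WT. Dots are the 3 libraries and black bars their mean. Centre values stay between 0.88 and 1.6 in replicate 1 across classes, and the promoter separates the BrU-seq classes, with means of 2.33 above and 1.05 at or below the median.

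The side of the centre that faces away from the promoter was compared with the side toward it. At 115 of the 196 origins compared, the centre lay past the gene end, so neither orientation of fork and RNAPII can be assigned after the centre there. From 200 to 2000 bp from the centre, the log2 ratio of after over before had a median of 0.022, 0.038 and -0.16 at 196 downstream origins at least 4000 bp from the TSS, so the libraries differed in sign. At the 68 with the centre inside the gene it was 0.038, 0.28 and -0.099, and the libraries again differed in sign. At the 115 past the gene end it was -0.0067, -0.073 and -0.20. At 867 upstream origins it was -0.012, -0.019 and 0.044. By limma, 3 of 196 downstream origins were higher after the centre, where 0.573% of all 1745 were called, and 2 were lower, where 0.63% of all were called. Without replicate 1 there was 1 higher call (0.51%, where 0.516% of all were called). Without replicate 2 there were 6 lower calls (3.06%, where 1.38% of all were called). With a trend in limma's prior variance there were 0 calls in either direction, also over all origins. At an unadjusted p under 0.05, that limma fit had 7 higher and 12 lower of 196, beside 65 and 92 of all 1745.

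RWDD4 had densities of 1.52, 1.44 and 2.33 after the centre, against 0.550, 0.514 and 0.467 before it (log2 ratio 1.58 ± 0.29, SE, limma adjusted p = 0.020, higher in 3 of 3 libraries). NUAK2, which encodes a kinase related to AMPK, had 3.17, 2.31 and 4.37 after the centre, against 1.10, 1.27 and 1.20 before it (1.35 ± 0.29, limma adjusted p = 0.046). Both centres lie inside the gene shortly before its end, at 366 bp in RWDD4 and 938 bp in NUAK2, so the side after the centre covers the end of the gene. LINC02004 had 2.60, 2.64 and 4.57 after the centre, against 1.03, 1.10 and 1.53 before it (limma adjusted p = 0.038).

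FLJ42627, a long noncoding RNA gene, had 0, 0 and 0.0667 after the centre, against 0.315, 0.300 and 0.600 before it (limma adjusted p = 0.0048). Its density was below the library median on both sides. RNVU1-11, a variant U1 small nuclear RNA gene with near-identical copies and hence an uncertain value, had 0.295, 0.357 and 0.333 after the centre, against 4.17, 2.56 and 5.53 before it (limma adjusted p = 0.00029). Among protein-coding genes, 11 origins with the centre up to 5000 bp before the gene end had a median ratio of 0.083, 0.15 and 0.60, and 39 with the centre further inside had 0.044, 0.17 and -0.061, a split chosen after the data were examined.

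Of 10 gene lists, 3 held a gene nearest to a downstream origin. In the list of YAP and TGF-beta target genes CCN2 was 1 of 25, described above, in the developmental transcription factors TWIST1 was 1 of 40, and in the immediate early genes ATF3 was 1 of 25. TWIST1, a transcription factor of the mesenchyme, had 4.22, 2.31 and 4.33 at the promoter, against 0.968, 0.792 and 1.88 at the centre (log2 ratio 1.54 ± 0.31, SE, limma adjusted p = 0.00038). ATF3, a stress-induced transcription factor, had 0.965, 0.814 and 1.13 at the promoter, against 1.07, 0.948 and 1.52 at the centre (-0.24 ± 0.30, limma adjusted p = 0.50). The lists of replication proteins, DNA repair, cilium and centrosome, chromatin and Mediator, cytoskeleton, extracellular matrix and large fragile site genes held 0. Few genes of these lists were nearest to any of the 2040 origins, 2 to 7 for each list without a member, and 4, 15 and 6 for the lists of CCN2, TWIST1 and ATF3, so the counts carry little information.

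For 72 downstream origins, the nearest TSS was among the 9787 TSSs with spike-in normalized signal in 1 library of each genotype, and 46 passed a filter on mean promoter density. CFAP20, named for cilia and flagella, and CCNC, cyclin C of the Mediator kinase module, were the targeted genes. Promoter density here is the mean from -200 to 500 bp. Its median over the 46 promoters was 0.886 in CFAP20/CCNC-dKO cells and 0.955 in CFAP20-KO, against 1.14 in WT. Among hosts in CFAP20/CCNC-dKO the median log2 ratio to WT was -0.050, with -0.24 over all 4894 TSSs that passed. For CFAP20-KO it was 0.061, with 0.13 over all. In CFAP20-KO the sign depended on the filter: it was -0.068 with no filter (72 promoters) and -0.12 with a filter on WT density alone, chosen after the data were examined. After centring on the median of all TSSs, 10 of 46 promoters were at least 1.5-fold higher in CFAP20/CCNC-dKO, where 18.7% of all TSSs were, and 6 were lower, where 16.6% of all were. In CFAP20-KO, 7 were higher, where 15.7% of all were, and 8 were lower, where 16.6% of all were. These counts lie near the background. There is no replicate check and no test, and both comparisons share the WT library.

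The knockout libraries were shallow: the TSS windows held 1180464 equivalent fragments in CFAP20/CCNC-dKO cells and 840840 in CFAP20-KO, against 7006814 in WT. Single promoters therefore carry wide 95% Clopper-Pearson intervals, which cover counting error only. Promoters are ordered below by the log2 ratio with pseudocount, among the 46 that passed the filter. CDC25B had the lowest ratio of these in CFAP20/CCNC-dKO, with 0.141 in CFAP20/CCNC-dKO cells and 0.832 in CFAP20-KO, against 1.55 in WT. Its ratio to WT was 0.0910 (0.0175 to 0.277) in CFAP20/CCNC-dKO cells and 0.536 (0.262 to 0.986) in CFAP20-KO. The region of CDC25B was also lower, with flanks at 0.568 times the library median in CFAP20/CCNC-dKO cells and 0.599 in CFAP20-KO, against 1.78 in WT.

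TMEM17, which encodes a protein of the ciliary transition zone, had 0.617 in CFAP20/CCNC-dKO cells and 0.875 in CFAP20-KO, against 1.93 in WT. Its ratio was 0.319 (0.165 to 0.564) in CFAP20/CCNC-dKO cells and 0.453 (0.227 to 0.817) in CFAP20-KO. STOML1, a stomatin family gene, had the lowest ratio of the 46 in CFAP20-KO, with 0.927 in CFAP20/CCNC-dKO cells and 0.712 in CFAP20-KO, against 1.74 in WT. SFT2D2 and BMP3, a ligand gene of the bone morphogenetic protein family, followed in CFAP20-KO with 0.557 (0.271 to 1.03) and 0.612 times WT (0.193 to 1.5), and both intervals include 1. LOC101927789 came next by that order, with 0.605 times WT (0.146 to 1.71). C2orf73 and SLC37A2 followed in CFAP20/CCNC-dKO with 0.414 (0.192 to 0.790) and 0.427 times WT (0.188 to 0.844).

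Among the 5 highest promoters in each knockout, MEIG1, a gene of spermatogenesis, had 1.58 in CFAP20/CCNC-dKO cells and 2.52 in CFAP20-KO, against 1.36 in WT. Its ratio in CFAP20-KO was 1.86 (1.24 to 2.72). The region of MEIG1, on chromosome 10, was also higher. Its flanks stood at 1.41 times the library median in CFAP20/CCNC-dKO cells and 1.77 in CFAP20-KO, against 0.694 in WT. PLIN2, which encodes a coat protein of lipid droplets, had 0.894 in CFAP20/CCNC-dKO cells and 1.77 in CFAP20-KO, against 0.892 in WT, a ratio of 1.99 (1.21 to 3.14) in CFAP20-KO. SIKE1 had 2.36 in CFAP20/CCNC-dKO cells and 1.47 in CFAP20-KO, against 1.44 in WT, a ratio of 1.64 (1.16 to 2.28) in CFAP20/CCNC-dKO. The others of these had WT densities of at most 0.750. The filter averaged the 3 libraries, so a promoter low in WT can pass through a high value in a knockout. The part of the filter in the ratios below was not tested. A WT promoter density of 0.416 lay at the 51.4th percentile of TSSs, so not all of these promoters were low in WT. LINC01490, LINC01337 and GHSR, the ghrelin receptor gene, had ratios of 2.45, 1.97 and 2.03 in CFAP20-KO from WT densities of 0.411, 0.458 and 0.379. In CFAP20/CCNC-dKO, LINC01039, LOC101927789, FBXO43 and LINC01910 had ratios of 2.59, 1.68, 1.72 and 1.59 from WT densities of 0.292, 0.458, 0.557 and 0.750. GHSR was among the lowest in CFAP20/CCNC-dKO, at 0.0868, fewer than 2 equivalent fragments.

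**Figure D5:**
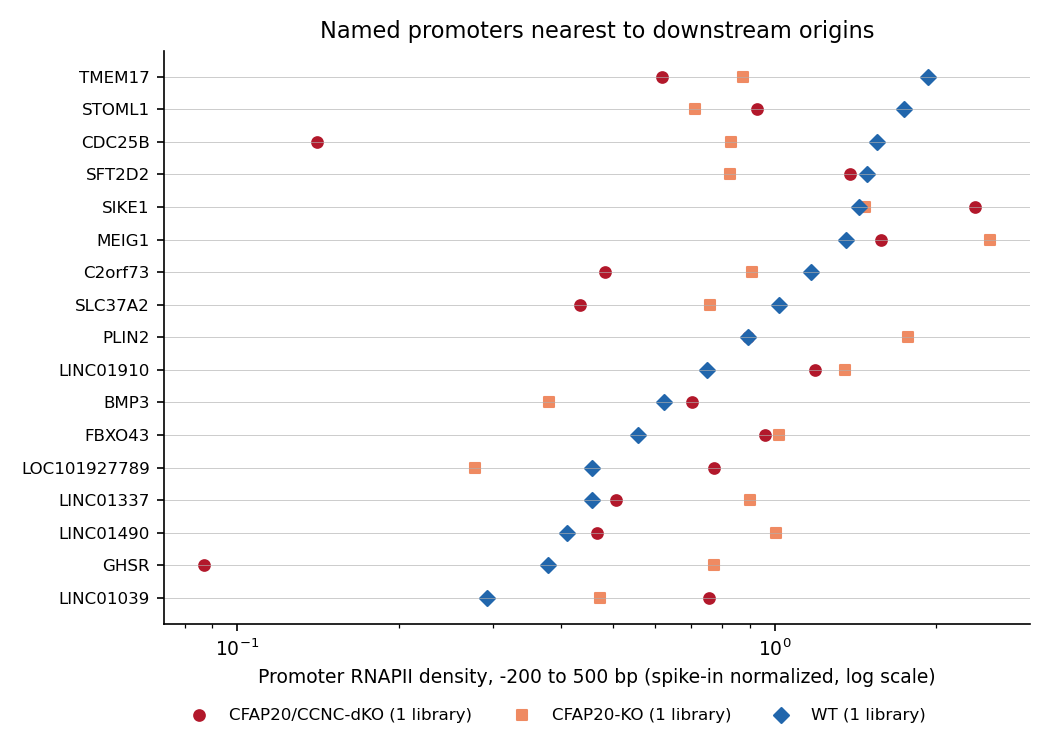
Spike-in normalized promoter RNAPII density (x axis, log scale) of the named promoters nearest to downstream origins (rows, ordered by WT density) in CFAP20/CCNC-dKO (circles), CFAP20-KO (squares) and WT (diamonds), 1 library each. CDC25B lies furthest left of its WT value, at 0.141 in CFAP20/CCNC-dKO against 1.55 in WT.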

How the data were processed

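RNAPII density is a coverage signal that the authors deposited in 200-bp bins over 100 kb on either side of origin centres (3 WT libraries, normalization not given in the sources used here) and in 10-bp bins over 5 kb on either side of TSSs (1 library per genotype, spike-in normalized per the file names). Per the submitters' processing notes, builds were GRCh38/hg38 and BDGP6 and tools included BWA 0.7.17, SAMtools 1.11 and HOMER 4.8.2, with no role given. The BrU-seq value is the authors' deposited score, on a scale not given. 2 per-sample columns were not used.

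The origins and gene lists were chosen with earlier results of these data known. Window means were compared as log2 ratios with a pseudocount of 10% of the library median density, which understates changes at low sites. limma 3.58.1 (R 4.3.3) fitted the mean ratio of each origin over 3 libraries, with Benjamini-Hochberg adjustment over all origins tested and calls at adjusted p under 0.05. The fit was tested on simulated data. Named genes were the 8 highest by centre density and by promoter density, all after over before calls (at most 6 each way), the 5 highest and lowest host ratios per knockout, list genes and the origins at the distance limits. Host promoters passed at the median of the mean density of 3 libraries. Equivalent fragments are coverage divided by step and isolated fragment length (320, 300 and 140 bp in CFAP20/CCNC-dKO, CFAP20-KO and WT). Alternatives changed pseudocounts, windows, filters, summaries and libraries. Some items named by these rules are not reported here.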

Additional observations from a re-analysis of the deposited data

How the results depend on the processing

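Of 105 alternative values, 74 stayed within the spread between libraries, within 1.5 times the main count or, for the knockouts, within 0.1 of the main median. The ratio of promoter over centre was 0.85 with mean densities and 1.38 with a filter on low density, against 0.61. The ratio of centre over flanks, -0.083 with a spread between libraries of 0.0043, turned to 0.14 with mean densities and to 0.0071 with a centre of 5 kb on either side, and was -0.089 and -0.074 with pseudocounts of 1% and 25%, -0.12 with flanks at 50 to 75 kb, -0.14 for distances over 5000 bp and -0.076 without chromosome 10. The gene body over promoter difference was 0.42 with mean densities and 0.68 without chromosome 10. The cause of these shifts was not tested.

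Counts of calls moved as follows. For promoter against centre, the filter on low density, which tests fewer origins, gave 70 higher and 2 lower calls. These were 85.4% and 2.44% of those tested, where 94.8% and 0.929% of all were called. The trend in limma's prior variance gave 12 lower (5.31%, where 2.99% of all were called). Leaving out 1 library gave 5 to 11 lower (2.21% to 4.87%, where 1.41% to 2.75% of all were called). For centre against flanks, the wider centre gave 66 higher (25.5%) and 55 lower (21.2%), where 14.3% and 18.6% of all were called. The trend gave 16 lower (6.18%, where 5.44% of all were called). Leaving out 1 library gave 9 to 25 higher (3.47% to 9.65%, where 1.37% to 5.34% of all were called). The same gave 6 to 23 lower (2.32% to 8.88%, where 1.42% to 9.22% of all were called). For after against before, the filter gave 5 higher (4.59%) and 4 lower (3.67%), where 2.66% and 3.02% of all were called. The trend gave 0 of each, also over all origins, and the pseudocount of 1% 0 higher, where 0.115% of all were called. Leaving out 1 library gave 1 to 3 higher (0.51% to 1.53%, where 0.401% to 0.974% of all were called). The same gave 2 to 6 lower (1.02% to 3.06%, where 0.458% to 1.38% of all were called). The CFAP20-KO median over host promoters was -0.068 with no filter and -0.12 with a filter on WT density alone. Shallow knockout libraries and the low step counts of WT replicate 3 limit values of single sites. No paired analysis was possible because the groups share only replicate 1.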
